A study of Arabidopsis thaliana with 14 samples.

Results

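PUCHI and LBD16 are transcription factor genes of early lateral root formation in Arabidopsis thaliana, and each is represented by 1 of the 22810 probe sets on the ATH1 array. The probe sets were taken from the array annotation: 249992_at for PUCHI (AT5G18560) and 265856_at for LBD16 (AT2G42430). These 2 probe sets were followed across all 14 arrays and 6 groups. RNA came from the last 5 mm of the primary root of seedlings of the line AtIPT8/pga22, Wassilewskija background, after 7 days on vertical plates. Liquid medium alone (control), medium with 5 µM 17-beta-estradiol, or medium with 5 µM trans-zeatin, a cytokinin, was then laid over the seedlings for 12 or 24 h. Control and estradiol at 12 h had 3 arrays each, and trans-zeatin at 12 h and all groups at 24 h had 2 each. In this line an estradiol-inducible promoter is known to drive IPT8, whose isopentenyltransferase makes cytokinin, although the labels also list a T-DNA knock-out of IPT8. Every group, controls included, carried this genotype, and IPT8 has no named probe set here. An effect of estradiol itself therefore cannot be told apart from one of IPT8.

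Lateral roots arise from pericycle cells inside the primary root. Auxin acts through the response factors ARF7 and ARF19 to switch on LBD16, a LOB domain (LBD) factor needed for the asymmetric divisions that found a new primordium. PUCHI, an AP2/ERF-type factor, is also auxin responsive and limits cell division at the flanks of the primordium. Cytokinin is known as an inhibitor of lateral root initiation, so these genes lie where the auxin and cytokinin responses named in the study's title meet.

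Values are linear MAS5 signals, and every array had a trimmed mean of 100 (2% cut from each end). Median signals per array ranged from 35.4 to 42.4. The second principal component set off 2 arrays, control 12 h replicate 3 (37.06) and estradiol 12 h replicate 1 (32.03), with 13.05 as the highest value among the other 12. Of 26 marker genes of root cell types and green tissue, 2 have a named probe set. These are the root hair cell expansin genes EXPA7 and EXPA18, so that the other tissues were not checked here. Their summed signal was 73.1 to 157 in control, 57.1 to 106 with estradiol and 59.5 to 83.4 with trans-zeatin at 12 h, overlapping. At 24 h it was 48.2 to 61.6 in control, 64.7 to 85.3 with estradiol and 82.1 to 91.2 with trans-zeatin. The sum was thus higher in all treated arrays, opposite to PUCHI and LBD16. EXPA7 alone overlapped control with estradiol (28.7 to 54.4 against 27.5 to 31.9) but not with trans-zeatin, and EXPA18 alone overlapped with neither. The share of all probe sets separated upward in this way was not computed. Neither marker was called, and the part of cell composition in the results below was not tested.

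PUCHI was lower in every treated array than in any control array. Its signal was 58.4, 65.0 and 44.2 in the control arrays at 12 h and 76.3 and 67.8 at 24 h. With estradiol it was 30.8, 26.3 and 25.6 at 12 h and 21.3 and 16 at 24 h. All 9 treated arrays lay below all 5 control arrays, which holds for 3.29% of the 15605 probe sets tested. With trans-zeatin the signal was 17.5 and 12.3 at 12 h and 17.8 and 5.47 at 24 h. Only the 3 estradiol 12 h arrays among the treated exceeded 23, the signal that a probe set had to pass on at least 2 arrays to be tested. In whole root tips, fewer cells that express a gene and less RNA per cell cannot be told apart.

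**Figure D1:**
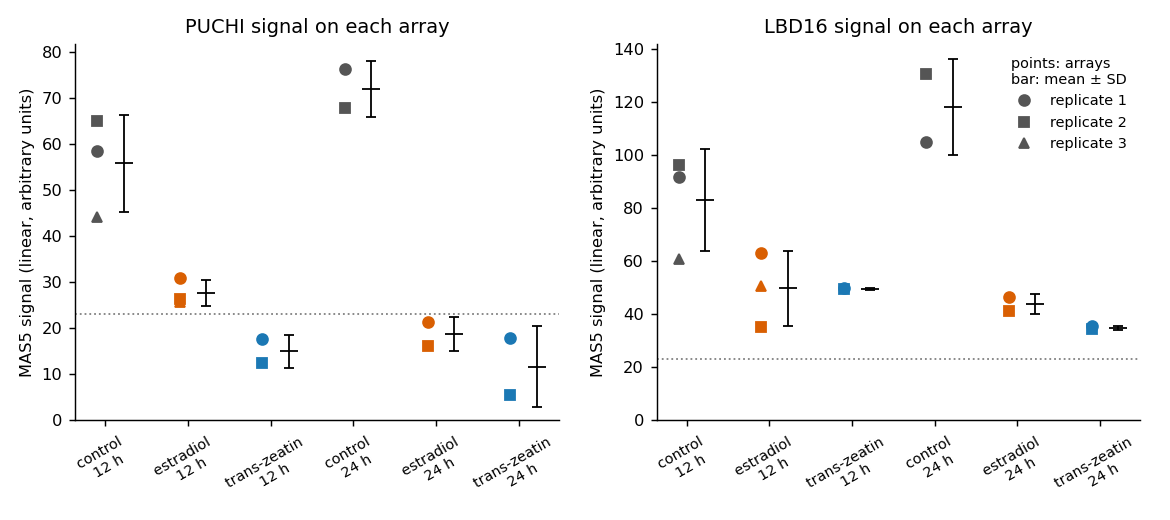
MAS5 signal (linear axis from 0, arbitrary units) of PUCHI on the left and LBD16 on the right on each of the 14 arrays, with the mean and SD of each group beside the points. The dotted line marks a signal of 23. All treated PUCHI values lie at or below 30.8 and all control values at or above 44.2, while for LBD16 the estradiol 12 h array at 63.1 lies above the lowest control array at 60.8.

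PUCHI had a negative change in all 4 comparisons with control arrays of the same time and was called lower in 3 of them. Changes were tested with limma on log2 of the signal plus 6.3 and called at an adjusted p under 0.05 over all probe sets tested. With estradiol at 12 h the mean went from 55.8 ± 10.6 (SD, n = 3) to 27.6 ± 2.84 (n = 3), a log2 change of -0.86 ± 0.26 (SE) that missed the threshold (limma adjusted p = 0.075). In that comparison 2.52% of probe sets were called lower, and no control and estradiol arrays overlapped, as for 13.7% of probe sets. Adjusted p was 0.041 and 0.038 when trans-zeatin 24 h replicate 1 or 2 was left out, with the change itself at -0.86 in both.

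With trans-zeatin at 12 h the PUCHI mean was 14.9 ± 3.65 (n = 2), a log2 change of -1.55 ± 0.29 (limma adjusted p = 0.0074), where 4.33% of probe sets were called lower. Without trans-zeatin 12 h replicate 2 the change was -1.37 and was not called. That fit left a single array in the group and gave fewer calls over all probe sets as well. After 24 h of estradiol it was 18.7 ± 3.74 against 72.0 ± 6.02 in control (n = 2 each), a log2 change of -1.65 ± 0.32 (adjusted p = 0.01; 1.53% of probe sets called lower). That call ended without control 24 h replicate 1 (-1.58) or 2 (-1.73) and without estradiol 24 h replicate 2 (-1.5). Each of these fits left a single array in a group and gave fewer calls over all probe sets as well.

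After 24 h of trans-zeatin the PUCHI mean was 11.6 ± 8.72 (n = 2). Replicate 1 of this group (17.8) lay above both trans-zeatin 12 h arrays and 1 estradiol 24 h array, so the low mean rests on replicate 2 (5.47). The log2 change was -2.22 ± 0.32 (95% interval -2.90 to -1.53, limma adjusted p = 0.0012), where 1.32% of probe sets were called lower and 0.179% fell further. Leaving out either array gave changes from -2.73 to -1.70, both still called. Because these signals are under 23 and close to the added 6.3, fitted changes understate the ratio of signals and their sizes are uncertain. Only at estradiol 12 h were all treated arrays above 23, and there the control mean was 2.03 times the treated mean.

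LBD16 was reduced at 24 h under both treatments. Its signal was 105 and 130.5 in control at 24 h, 46.3 and 41.0 with estradiol, and 35.3 and 34.1 with trans-zeatin. The groups did not overlap, as for 33.3% of probe sets with estradiol and 31.9% with trans-zeatin (2 arrays against 2). With estradiol the log2 change was -1.3 ± 0.26 (95% interval -1.86 to -0.75, limma adjusted p = 0.012). With trans-zeatin it was -1.59 ± 0.26 (-2.14 to -1.03, adjusted p = 0.0031), 3.00-fold lower on the log2(signal + 6.3) scale. The trans-zeatin call held when any single array was left out (adjusted p 0.0015 to 0.049). The estradiol call ended without control 24 h replicate 2 (-1.15) or estradiol 24 h replicate 2 (-1.23). Both of these fits left a single array in a group and gave fewer calls over all probe sets as well.

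At 12 h the LBD16 signal was 91.6, 96.3 and 60.8 in control, 63.1, 35.2 and 50.5 with estradiol, and 49.8 and 49.3 with trans-zeatin. One estradiol array lay above the lowest control array, and these are the 2 arrays set off by the second principal component. All trans-zeatin values lay below control, as for 21.6% of probe sets. The changes of -0.68 ± 0.21 (estradiol, limma adjusted p = 0.081) and -0.65 ± 0.24 (trans-zeatin, adjusted p = 0.11) did not pass. Without both of those arrays they were -1.05 ± 0.20 (adjusted p = 0.016) and -0.84 ± 0.20 (0.031), and leaving out control 12 h replicate 3 alone gave -0.87 with estradiol (0.04). PUCHI without both arrays was at -1.07 ± 0.33 with estradiol (adjusted p = 0.11) and -1.69 ± 0.33 with trans-zeatin (0.011). Control 12 h replicate 3 was the lowest control array for both genes, and estradiol 12 h replicate 1 the highest treated array for both.

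Taking both times and treatments as one contrast, each gene was lower in treated than in control root tips. In an exact two-sided permutation test of arrays within time points (840 arrangements), PUCHI was 2.90-fold lower (log2 -1.54, exact p = 0.0012, the smallest these arrangements can give). LBD16 was 2.08-fold lower on the same scale (log2 -1.06, exact permutation p = 0.0024). Both genes were chosen with earlier results of these data known, so these p-values are no independent support. For PUCHI, all 9 treated arrays lay below all 5 control arrays, as for 3.29% of probe sets. For LBD16, 8 of 9 treated arrays did, and the share of probe sets with that count was not computed. The difference between the genes' changes was also tested. PUCHI fell by 0.48 more than LBD16 on the log2 scale (exact permutation p = 0.046, the same when adjusted over the 3 values tested this way), and this ended when any 1 of 11 of the 14 arrays was left out (-0.59 to -0.36, adjusted p 0.05 to 0.17).

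**Figure D2:**
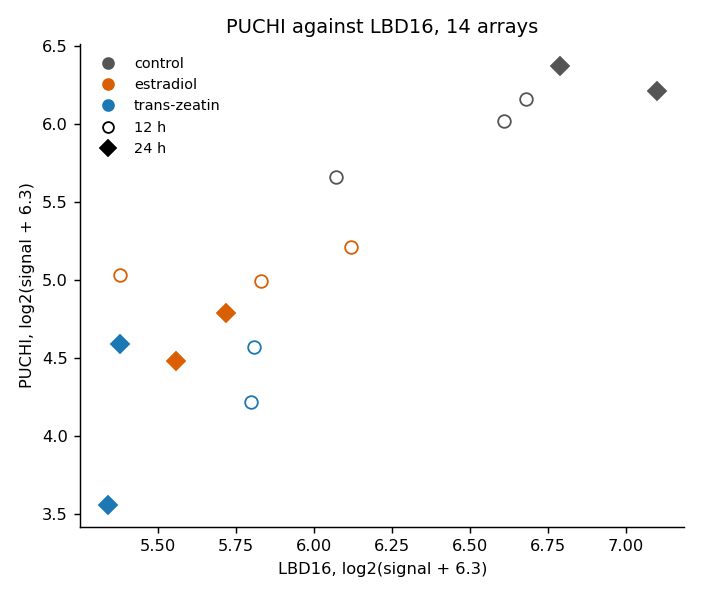
Log2(signal + 6.3) of PUCHI against that of LBD16, 1 point per array, coloured by treatment, with open circles for 12 h and filled diamonds for 24 h. The 5 control arrays lie at the upper right. Both trans-zeatin 24 h arrays are among the lowest for LBD16. For PUCHI, replicate 2 of this group (3.56) is the lowest array. Its replicate 1 (4.59) lies above both trans-zeatin 12 h arrays and 1 estradiol 24 h array.

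Estradiol and trans-zeatin were compared directly at the same time. PUCHI was higher with estradiol than with trans-zeatin by 0.68 ± 0.29 at 12 h (95% interval 0.06 to 1.31, limma adjusted p = 0.54) and by 0.56 ± 0.32 at 24 h (-0.13 to 1.25, adjusted p = 0.9). The 24 h value was 1.08 without trans-zeatin 24 h replicate 1 and 0.04 without replicate 2. LBD16 differed by -0.03 ± 0.24 at 12 h (-0.54 to 0.48) and by 0.28 ± 0.26 at 24 h (-0.27 to 0.84). None of these 4 differences passed, against 0.00641% and 0.0449% of probe sets called at 12 and 24 h; 1 of the 4 had an unadjusted p under 0.05 (PUCHI at 12 h, 0.035). The intervals leave room for a PUCHI level up to 2.48-fold higher with estradiol at 12 h, and for LBD16 at 12 h they span 0.69- to 1.39-fold.

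No difference between 12 and 24 h passed for either gene in any treatment. The estimates below changed sign for PUCHI and LBD16 in control with the actin ratio as a covariate (-0.34 and -0.01), for LBD16 with estradiol without both arrays that stood apart (0.04) and with 25S rRNA as a covariate (0.06), and for PUCHI with trans-zeatin without trans-zeatin 24 h replicate 2 (0.2). In control, LBD16 was 1.41-fold higher at 24 h than at 12 h (log2 0.49 ± 0.24, limma adjusted p = 0.35) and PUCHI 1.27-fold (0.35 ± 0.29, adjusted p = 0.61), where 0.468% of probe sets were called. With estradiol the 24 h level against 12 h was at -0.44 ± 0.29 for PUCHI and -0.13 ± 0.24 for LBD16 (0.513% of probe sets called), and with trans-zeatin at -0.32 ± 0.32 and -0.45 ± 0.26 (0.32% called). The interaction, which tests whether the treatment effect differed between the times, was -0.79 ± 0.41 for PUCHI and -0.62 ± 0.33 for LBD16 with estradiol (0.0769% of probe sets called). With trans-zeatin it was -0.67 ± 0.43 and -0.94 ± 0.35 (unadjusted p = 0.15 and 0.018, limma adjusted p = 0.65 and 0.46). With 1 array left out the trans-zeatin interaction of PUCHI ran from -1.18 to -0.15 (without trans-zeatin 24 h replicate 1 or 2), and without both arrays that stood apart the estradiol interaction of LBD16 was -0.26. Over all probe sets 0 were called in the trans-zeatin interaction (0.0%) and 1487 had an unadjusted p under 0.05 in it. Calls at 24 h and their absence at 12 h for LBD16 are therefore not shown to differ.

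**Figure D3:**
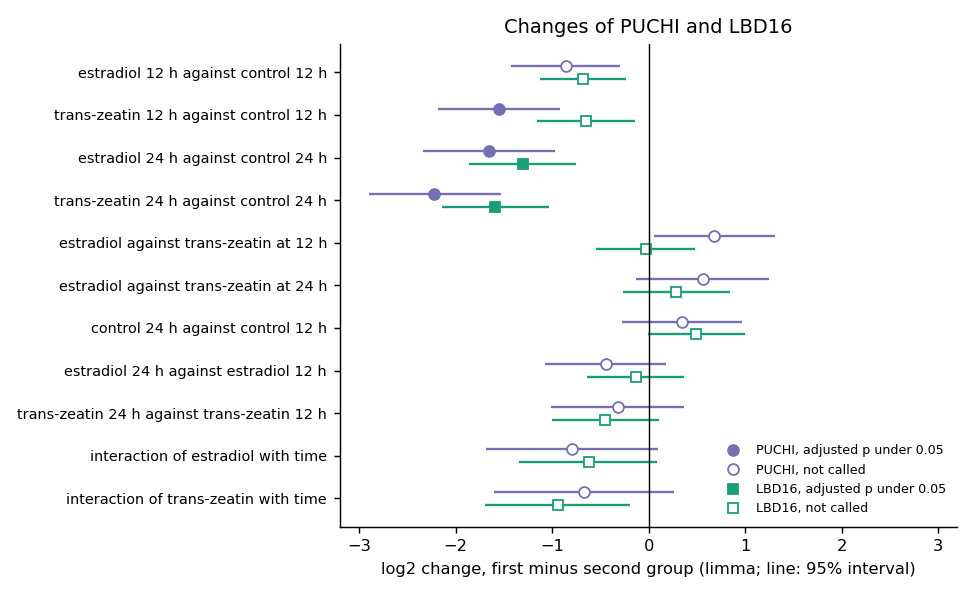
Log2 change of PUCHI (circles) and LBD16 (squares) in 11 comparisons, first group minus second, with 95% intervals from limma. Filled symbols have an adjusted p under 0.05. All 5 filled symbols are falls against control, from -2.22 to -1.3.

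By mean signal, the order of PUCHI levels was control 24 h (72.0), control 12 h (55.8), estradiol 12 h (27.6), estradiol 24 h (18.7), trans-zeatin 12 h (14.9) and trans-zeatin 24 h (11.6). For LBD16 it was control 24 h (118), control 12 h (82.9), estradiol 12 h (49.6), trans-zeatin 12 h (49.5), estradiol 24 h (43.7) and trans-zeatin 24 h (34.7). Neighbours in these orders that were tested against each other did not pass, and for PUCHI control 12 h and estradiol 12 h were the adjacent groups with no overlap and the lowest adjusted p (0.075). Both orders place the 2 control groups first. The last place of trans-zeatin 24 h for PUCHI rests on replicate 2, since replicate 1 (17.8) lies above the trans-zeatin 12 h mean, and all PUCHI signals of the last 3 groups are under 23.

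Other genes of lateral root initiation could be followed only in part. Of 25 listed genes 5 have a named probe set, and 3 of these were bright enough to test, among them PUCHI and LBD16. The third, IAA18, an Aux/IAA repressor of auxin response, had log2 changes between -0.14 and 0.39 against control and was not called in any of the 4 comparisons. LBD29, a relative of LBD16 that acts with it downstream of ARF7 and ARF19, did not reach the test. Its mean signals were 8.36 and 14.6 in control at 12 and 24 h, 3.05 and 4.53 with estradiol, and 8.70 and 7.24 with trans-zeatin. All its signals were under 23. With estradiol at 24 h (2.11 to 6.96) it lay below control (10.1 to 19.0), as did 33.3% of tested probe sets. The other treated groups overlapped control of the same time. ACR4, a receptor kinase gene of formative divisions, had mean signals of at most 2.33 in every group. All 5 listed PIN auxin efflux carriers lack a named probe set.

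LEP (AT5G13910), an AP2/ERF-type factor gene of the same subgroup as PUCHI, was the one of 3 listed close relatives with a named probe set. Its mean signal was 114 ± 23.4 in control at 12 h and 121 ± 19.2 at 24 h. With estradiol it was 52.3 ± 2.59 and 26.8 ± 2.11, and with trans-zeatin 27.1 ± 4.57 and 33.8 ± 1.44. LEP fell in 4 of 4 comparisons, with log2 changes of -1.02 ± 0.17 and -1.94 ± 0.21 with estradiol at 12 and 24 h (limma adjusted p = 0.0041 and 0.00014). With trans-zeatin they were -1.84 ± 0.19 and -1.66 ± 0.21 (adjusted p = 0.00013 and 0.00039). A fall called in all 4 comparisons was found for 0.34% of probe sets, in at least 3, as for PUCHI, for 0.718%, and in at least 2, as for LBD16, for 2.29%; these comparisons share control arrays in pairs.

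Cytokinin and auxin response genes served as a reference. The type-A response regulator ARR16, a primary cytokinin response gene, had a mean signal of 7.74 and 6.21 in control at 12 and 24 h and between 71.5 and 105 in the treated groups, and was called higher in all 4 comparisons. The shares of probe sets called higher were 2.36% and 2.28% with estradiol and 3.21% and 2.15% with trans-zeatin at 12 and 24 h. The share called higher in all 4 was not computed. ARR15, of the same family, was called higher with estradiol at both times and with trans-zeatin at 24 h, and at trans-zeatin 12 h was at 1.29 ± 0.38 (limma adjusted p = 0.055). These 2 of 10 listed type-A regulators have a named probe set. Control signals of both were under 23 on every array, so both could be tested only through the treated groups, and the sizes of their changes depend on the added 6.3. Among 32 Aux/IAA genes, named probe sets exist for 7, and 3 were tested. IAA30 rose at 12 h with estradiol (0.98 ± 0.24, adjusted p = 0.028) and trans-zeatin (1.05 ± 0.26, 0.029), while IAA18 and IAA34 were not called in any comparison with control. PUCHI and LBD16 thus had negative changes in all 4 comparisons where ARR15, ARR16 and IAA30 had positive ones; 25.1% of probe sets had a negative change of any size in all 4.

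**Figure D4:**
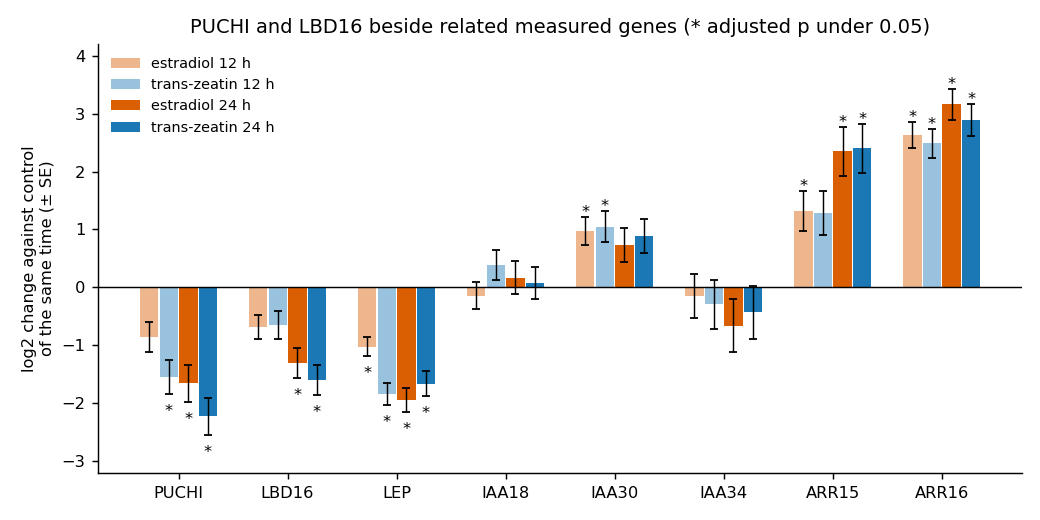
Log2 change against the control of the same time, with SE, for PUCHI, LBD16, their measured relatives and reference genes, 1 bar per treatment and time. Stars mark an adjusted p under 0.05. Bars of PUCHI, LBD16 and LEP point down, from -0.65 to -2.22, and those of ARR15 and ARR16 point up, from 1.29 to 3.16.

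Likeness to each gene was described by Pearson's r of log2 values over the 14 arrays among 8526 other tested probe sets with 1 named gene. The arrays share the split between control and treated groups, which weighs on every r. The 5 most like PUCHI were AT3G53980 (r = 0.951), AT1G48750 (0.942), AT4G27400 (0.941), AT5G57500 (0.928) and AT5G19875 (0.922). For LBD16 they were AT1G48750 (0.910), AT5G42720 (0.896), AT4G27400 (0.887), PUCHI (0.886) and MYBC1 (0.882), a MYB-type transcription factor gene. PUCHI was thus 4th for LBD16, and LBD16 16th for PUCHI. After group means were removed, r between the 2 genes was 0.38 over the 14 residuals. AT1G48750, which is on both lists, had a mean signal of 1789 in control at 24 h, 948 with estradiol and 668 with trans-zeatin. AT3G53980 was at 409, 38.3 and 17.3 in the same groups.

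Few genes beside PUCHI and LBD16 on the chromosomes were measured. Among the 5 protein-coding neighbours on each side, 4 of PUCHI and 2 of LBD16 were tested, and 0 of these 6 were called in the 4 comparisons with control. With from 1.32 to 4.33% of all probe sets called lower, 6 genes are too few to tell from that background, and their difference from PUCHI or LBD16 was not tested. The nearest tested neighbour of PUCHI, AT5G18550, had log2 changes between -0.26 and 0.52. AT5G18540, next to it, went from a mean signal of 59.9 ± 12.0 in control at 24 h to 23.8 ± 1.90 with estradiol and 31.0 ± 0.321 with trans-zeatin (log2 -1.13 ± 0.36 and -0.82 ± 0.36, limma adjusted p = 0.1 and 0.25, no overlap with control). Such a separation below control at 24 h held for 33.3% of probe sets with estradiol and 31.9% with trans-zeatin. The neighbours of LBD16, AT2G42390 and AT2G42450, had changes between -0.41 and 0.10.

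An actin ratio that reflects RNA quality was lower in treated than in control groups, along with both genes, with overlap at 12 h. A second such ratio was lower in treated arrays at 12 h only. The ratio between actin control probe sets at the 3' and 5' ends of the transcript, which rises as RNA is degraded or copied incompletely, was 3.23 to 4.93 in control and 2.37 to 3.31 in treated arrays at 12 h. At 24 h it was 6.24 and 6.44 in control and 3.71 to 4.85 in treated arrays. With this ratio as a covariate all 5 calls of the 2 genes ended. Over all probe sets tested, calls in this fit went from 1176 to 130 at trans-zeatin 12 h. They went from 595 to 197 at estradiol 24 h and from 541 to 78 at trans-zeatin 24 h. PUCHI was then at -1.05 ± 0.36 (trans-zeatin 12 h), -1.21 ± 0.37 (estradiol 24 h) and -1.57 ± 0.43 (trans-zeatin 24 h), and LBD16 at -0.98 ± 0.30 and -1.12 ± 0.36 at 24 h, with limma adjusted p from 0.16 to 0.28. The uncalled changes at 12 h were -0.42 ± 0.32 for PUCHI with estradiol, and -0.36 ± 0.27 and -0.29 ± 0.30 for LBD16 with estradiol and trans-zeatin. All 8 changes were smaller in this fit, and their errors larger. A second pair of actin control probe sets gave another order at 24 h, with 18.9 and 25.7 in control and 24.1 to 33.6 in treated arrays, and 25.2 to 29.5 against 12.9 to 20.5 at 12 h. With the second ratio, a covariate chosen after the data were seen, the calls at 24 h held (adjusted p 0.0074 to 0.035) and PUCHI at trans-zeatin 12 h was at -1.75 ± 0.39 (adjusted p = 0.059). The 25S rRNA signal was uneven, from 88 on control 12 h replicate 2 to 4413 on trans-zeatin 12 h replicate 2. On trans-zeatin 12 h replicate 1 it was 222. With 25S rRNA as a covariate all 5 calls held. PUCHI was then at -1.45, -1.65 and -2.22 (limma adjusted p = 0.04, 0.014 and 0.0016) and LBD16 at -1.28 and -1.6 (0.011 and 0.0023). The 3 covariates thus gave different calls.

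**Figure D5:**
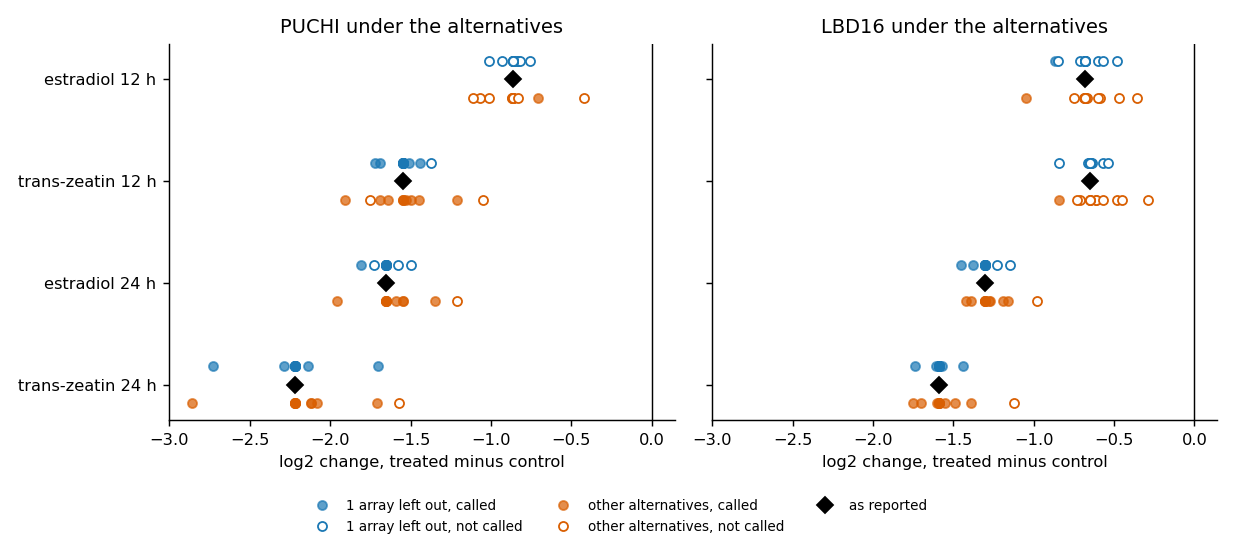
Log2 change of PUCHI (left) and LBD16 (right) against control as reported (black diamonds), with 1 array left out (blue) and under the other alternatives (orange); filled circles have an adjusted p under 0.05. Every value lies below 0, from -2.86 to -0.42 for PUCHI and from -1.75 to -0.29 for LBD16.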

How the data were processed

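Affymetrix ATH1 arrays were hybridised with 1 labelled sample each. The deposited table holds linear signal intensity per probe set, made by the authors with MAS5 and GCOS per the submitters' processing notes. Their versions and settings are not given there. Nothing states that replicates were separate cultures, so p-values measure the spread between these samples, and 2 or 3 arrays per group limit the precision. Gene names came from the array annotation (13513 with 1 gene, 503 with several, 8794 unnamed), and loci through RefSeq's TAIR10.1 gene table, used for names and gene order only; no sequences were used here.

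From the signals, log2(signal + 6.3) was computed, 6.3 being the 20th percentile. A probe set was tested if its signal was over 23 (the 40th percentile) on 2 or more arrays; the 64 control probe sets were left out. A linear model of the 6 group means was fitted over the 14 arrays with an intensity trend and 8 residual degrees of freedom (limma 3.58.1, R 4.3.3). Tests were two-sided, with Benjamini-Hochberg adjustment over the 15605 probe sets kept and a threshold of 0.05. The method was tested on simulated data with independent noise and changes only in the estradiol 12 h group. That simulation held no arrays that stood apart and no differences in actin ratio. The genes, lists and rules were chosen with earlier results of these data known. Named genes are PUCHI, LBD16, measured members of the lists and, for each, the 5 named probe sets of highest r; chromosomal neighbours and Aux/IAA genes were added outside this rule. Whether same-numbered replicates deviate together was checked: r exceeded 0.1 in 3 of 31 pairs (range -0.27 to 0.19), and the numbers were not treated as a pairing.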

Additional observations from a re-analysis of the deposited data

How the results depend on the processing

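The 8 changes of PUCHI and LBD16 against control stayed negative in all settings run: quantile normalization, centring on the median, other pseudocounts, no filter, no intensity trend, a replicate block, only the arrays of the time, leaving out arrays, and covariates. Across the 12 alternatives that leave out no single array, PUCHI ranged from -1.11 to -0.42 (estradiol 12 h), -1.91 to -1.05 (trans-zeatin 12 h), -1.96 to -1.21 (estradiol 24 h) and -2.86 to -1.57 (trans-zeatin 24 h). LBD16 ranged from -1.05 to -0.36, -0.84 to -0.29, -1.42 to -0.98 and -1.75 to -1.12 in the same order. A pseudocount of 16 took PUCHI past the threshold at estradiol 12 h (-0.71, limma adjusted p = 0.046). Without both arrays that stood apart LBD16 passed at 12 h (-1.05 and -0.84). These were its lowest control and its highest treated array, so leaving them out had to enlarge the falls. Adding the 3'/5' actin ratio to the fit ended all PUCHI calls (-1.05, -1.21 and -1.57) and both LBD16 calls (-0.98 and -1.12), and the second ratio ended that of PUCHI at trans-zeatin 12 h (-1.75). The cause was not tested.

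With 1 array left out, PUCHI ranged from -1.01 to -0.76, -1.72 to -1.37, -1.81 to -1.5 and -2.73 to -1.70, and LBD16 from -0.87 to -0.48, -0.84 to -0.54, -1.45 to -1.15 and -1.74 to -1.44. The replicate block changed no call against control (for PUCHI at trans-zeatin 12 h -1.64, adjusted p = 0.0085). Values near 0 changed sign without being called. For estradiol against trans-zeatin at 12 h, LBD16 was at 0.05 with the replicate block, 0.01 with the second actin ratio and -0.20 to 0.17 with 1 array left out. For 24 h against 12 h in control, the actin ratio gave -0.34 for PUCHI and -0.01 for LBD16. For LBD16 with estradiol it was 0.04 without both arrays, 0.06 with 25S rRNA as a covariate and -0.33 to 0.04 with 1 array left out; for PUCHI with trans-zeatin the last range was -0.84 to 0.20 (0.20 without trans-zeatin 24 h replicate 2). The larger fall of PUCHI than of LBD16 did not pass with a pseudocount of 16 (-0.29, exact permutation adjusted p = 0.085), quantile normalization (-0.46, 0.056) or without both arrays (-0.46, 0.098), and ranged from -0.59 to -0.36 with 1 array left out.

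Counts of called probe sets moved more. At estradiol 12 h they were 762 as reported, 334 from the 12 h arrays alone, 424 without both arrays that stood apart, 173 and 100 with the first and second actin ratio, and 419 to 972 with 1 array left out. At trans-zeatin 12 h they were 1176, 516 from the 12 h arrays alone, 130 and 157 with the actin ratios, 521 with 25S rRNA, and 264 to 1376. At estradiol 24 h they were 595, 1168 from the 24 h arrays alone, 938 without both, 197 and 367 with the actin ratios, and 199 to 731. At trans-zeatin 24 h they were 541, 947, 822, 78 with the first actin ratio, and 164 to 659.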
